A study of Mus musculus with 15 samples.

Results

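The 29 genes described here encode the enzymes that build cholesterol and the proteins that sense, move, store and export it. They were taken by gene symbol from a table of 24015 genes counted in inguinal white fat of mice, and 28 of the 29 had enough reads to be tested, among 15288 genes tested in all. The list holds 17 enzymes of cholesterol synthesis, 4 genes of sterol sensing, 4 of sterol transport and storage, and 4 of sterol export and its nuclear receptor. PolyA RNA was sequenced from the inguinal (subcutaneous) fat pad of C57BL/6 mice aged 2 months (young) or 12 months (aged). All of them, controls included, had spent 2 weeks at thermoneutrality, a warmth at which a mouse needs no extra heat production, and then had 5 days of vehicle or CL, given into the peritoneum. The labels write CL out as cardiolipin, but the same 2 letters commonly stand for an agonist of the β3-adrenergic receptor. The text therefore says CL and leaves the compound open. Young_Ctrl (vehicle) and Young_CL have 4 libraries each, Old_CL has 4, and Old_Ctrl (vehicle) has 3, numbered 1, 3 and 4, with no replicate 2 used here. Whether libraries are separate animals is not stated, and a p-value therefore measures only how these samples spread.

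Cholesterol is made from acetyl-CoA in the endoplasmic reticulum: the mevalonate pathway builds isoprenoid units, these are joined to squalene, and squalene is closed to lanosterol and trimmed to cholesterol. The genes of this route are switched on together by the transcription factor SREBP-2, encoded by Srebf2. When sterols are plentiful, the INSIG proteins hold SREBP-2 and its escort SCAP in the endoplasmic reticulum, and the LXR receptors, which bind oxidised sterols, switch on export through the transporters ABCA1 and ABCG1. White fat stores much of the body's free cholesterol in its lipid droplets, and most of it is taken up from lipoproteins.

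The promoter letters of 5 members that carry the results below are shown first, because SREBP-2 acts with the factor NF-Y, whose box reads CCAAT. Windows were available for 23 of the 29 members (29 windows of 300 bases, 250 before and 50 after the start of transcription, from RefSeq, build GRCm38.p6, which is not the build the reads were counted on). The 250 bases before the start are printed 5′ to 3′ on the gene's own strand, with each CCAAT, or ATTGG where the box lies on the other strand, in capitals. Insig1 encodes the sterol-responsive INSIG protein, from chr5:28071162-28071411 (plus strand); Nsdhl had the largest CL response of the enzymes, from chrX:72918271-72918520 (plus strand).
Insig1: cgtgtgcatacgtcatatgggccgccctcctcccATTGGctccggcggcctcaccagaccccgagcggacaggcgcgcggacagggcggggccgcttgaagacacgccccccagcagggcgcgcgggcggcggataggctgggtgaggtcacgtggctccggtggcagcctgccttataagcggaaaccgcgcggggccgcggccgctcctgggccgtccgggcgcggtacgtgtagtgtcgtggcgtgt
Nsdhl: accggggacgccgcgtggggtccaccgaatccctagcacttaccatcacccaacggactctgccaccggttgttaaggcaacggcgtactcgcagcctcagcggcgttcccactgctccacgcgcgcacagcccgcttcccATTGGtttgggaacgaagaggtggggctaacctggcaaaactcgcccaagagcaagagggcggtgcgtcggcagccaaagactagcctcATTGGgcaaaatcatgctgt
Mvd and Cyp51 were the 2 enzymes whose CL response differed between the ages, from chr8:122443423-122443672 (minus strand) and chr5:4104698-4104947 (minus strand); Srebf2 encodes SREBP-2 itself, from chr15:82147019-82147268 (plus strand).
Mvd: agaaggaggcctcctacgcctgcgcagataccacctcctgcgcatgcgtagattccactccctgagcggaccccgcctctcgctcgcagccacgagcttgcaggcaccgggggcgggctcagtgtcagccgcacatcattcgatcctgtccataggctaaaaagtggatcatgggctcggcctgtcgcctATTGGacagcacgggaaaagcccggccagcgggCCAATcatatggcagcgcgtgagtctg
Cyp51: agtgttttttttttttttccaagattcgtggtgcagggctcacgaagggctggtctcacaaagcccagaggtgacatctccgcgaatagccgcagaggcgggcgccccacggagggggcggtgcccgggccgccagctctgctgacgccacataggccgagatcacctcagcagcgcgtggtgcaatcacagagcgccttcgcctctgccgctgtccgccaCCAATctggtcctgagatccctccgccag
Srebf2: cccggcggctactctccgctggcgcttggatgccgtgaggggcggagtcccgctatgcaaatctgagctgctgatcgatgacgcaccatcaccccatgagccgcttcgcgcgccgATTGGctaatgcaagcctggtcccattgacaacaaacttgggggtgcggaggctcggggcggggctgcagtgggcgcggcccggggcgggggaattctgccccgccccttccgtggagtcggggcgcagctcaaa
Within the 250 bases printed, the NF-Y box stood at −216 to −212 from the start in Insig1, at −109 to −105 and −20 to −16 in Nsdhl, at −60 to −56 and −27 to −23 in Mvd, at −29 to −25 in Cyp51 and at −135 to −131 in Srebf2; the 50 bases after the start held 2 more in Nsdhl, at +8 to +12 and +34 to +38. Searched on both strands, CCAAT was present in 19 of the 23 members with a window (19 of 29 windows) and in 13 of 14 enzymes, against 37.4% of all 32851 windows of this length. The GC box GGGCGG, to which Sp1 binds, was present in 21 of 23 members (24 of 29 windows), against 35.7% of all windows, and the E-box CACGTG in 5 of 23 (6 of 29 windows), against 7.15%. One spelling of the sterol regulatory element, TCACNCCAC, was found only in the window of Hmgcs1 among the members, as TCACCCCAC at −137 to −129, and in 1.24% of all windows. A perfect DR4 repeat, the motif of LXR with its partner RXR, was in 0 of the 29 windows and in 0.0152% of all. In the members' windows no site of one motif overlapped a site of another, and a match or its absence describes the letters of these windows only.

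Levels are CPM, a gene's counts scaled to the size of its library after TMM normalization, and are not divided by gene length; changes are log2 differences from the edgeR quasi-likelihood test with Benjamini-Hochberg adjustment over all 15288 genes, and a gene was called at an adjusted p under 0.05. A library held 7066687 to 14796440 counts in Young_Ctrl, 6115542 to 30621448 in Young_CL, 6495373 to 51577001 in Old_Ctrl and 15723586 to 40235461 in Old_CL. Adipocyte markers were abundant in every library (12 genes, summing to 18623 to 75252 CPM), while 5 libraries also carried muscle: the summed CPM of 12 muscle genes was 2756 to 5294 in Young_CL 1, 2 and 3, 8456 in Old_Ctrl 3 and 3952 in Old_CL 3, against 40.2 to 399 in the others. Old_CL 1, 2 and 4 resembled each other more than any other pair within a group (robust SD of log2 ratios 0.0636 to 0.0933, against 0.116 to 0.747 in 18 other pairs), and their counts differed by more than counting noise. That does not show them to be separate animals; they are counted as 3 samples, and the results that change when they are summed into 1 library are given below. In bulk tissue, fewer cells of a type and less RNA per cell cannot be told apart.

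Hmgcs1, the enzyme that makes HMG-CoA, is listed at 0 in all 15 libraries. A count of 0 allows up to 3 counts, which is 0.491 CPM in the smallest library and 0.0582 CPM in the largest, for counting error only. Since synthesis genes on either side of it were counted in every library, the listing is given as it stands and is not read as a level. Acat2 has a near-identical neighbour, Acat3, with which it could share reads; the pair's counts differed in each library (470 and 321 in Young_Ctrl 1, 4771 and 1483 in Young_CL 1), and the values of Acat2 are given as uncertain.

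In young mice, the comparison of CL with vehicle asks what the treatment did to these genes at 2 months. All 16 tested enzymes rose and 0 fell (median log2 change 1.22, against -0.07 over all genes tested). The counts were the same at an unadjusted p under 0.05, with limma-voom and with DESeq2, and in 15 of the 16 every CL library stood above every vehicle library. Of all genes tested, 21.7% were called higher and 22.1% lower, and 18% and 16.1% had no overlap in these directions. Of all 28 tested members 20 rose and 2 fell, and 18 and 2 did not overlap.

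The enzymes of the mevalonate pathway rose by 0.91 to 1.73 on the log2 scale (6 of 6 tested, median 1.45). Pmvk, the phosphomevalonate kinase, stood at 39.7, 34.4, 25.0 and 22.3 CPM in the Young_Ctrl libraries and at 107.6, 80.0, 93.6 and 101.6 CPM in Young_CL (edgeR log2 change 1.67, SE 0.15, adjusted p = 6.2e-07). The lowest CL library was above the highest vehicle library by more than the whole vehicle range. Fdps, which makes farnesyl diphosphate, rose between means of 20.1 ± 3.27 and 61.9 ± 7.10 CPM (SD, n = 4 each; edgeR log2 change 1.64, adjusted p = 2.6e-07). Mvd, which removes a carboxyl group from mevalonate diphosphate, stood at 14.6, 16.7, 16.0 and 15.5 CPM with vehicle and at 48.1, 31.8, 37.8 and 32.5 CPM with CL (edgeR log2 change 1.26, SE 0.14, adjusted p = 6.3e-06). Its vehicle libraries lay close together, far below the CL libraries. Acat2, which joins the first 2 acetyl-CoA units, rose by 1.73, Idi1, the isomerase, by 1.04, and the mevalonate kinase gene Mvk by 0.91.

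From squalene to cholesterol all 10 enzymes rose, with a median of 1.11 and a range of 0.47 to 2.03. Nsdhl, which takes part in the removal of the C4 methyl groups, stood at 20.0, 16.2, 13.2 and 13.5 CPM with vehicle and at 66.2, 49.1, 61.8 and 76.6 CPM with CL (edgeR log2 change 2.03, SE 0.14, adjusted p = 7.4e-08). That is 4.08-fold higher, the largest change of the enzymes. Cyp51, the lanosterol demethylase, stood at 25.1, 23.1, 31.8 and 28.99 CPM with vehicle and at 121.6, 83.0, 97.4 and 79.7 CPM with CL (edgeR log2 change 1.80, SE 0.14, adjusted p = 1.6e-07). The groups were again apart, and Young_CL 1 was highest. Tm7sf2 (1.43) and Lss (1.38), a sterol reductase and the cyclase that makes lanosterol, followed, then Hsd17b7 (1.19), Msmo1 (1.02) and Sqle (0.99), the squalene epoxidase. The isomerase gene Ebp (0.66) and Dhcr7 (0.51), of the last reduction, rose less. Fdft1, the squalene synthase that commits the route to sterols, had the smallest rise (0.47, edgeR adjusted p = 0.026), its groups overlapped, and it was not called without Young_Ctrl 2, 3 or 4 or Young_CL 1 (adjusted p = 0.0619 to 0.0943).

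**Figure D1:**
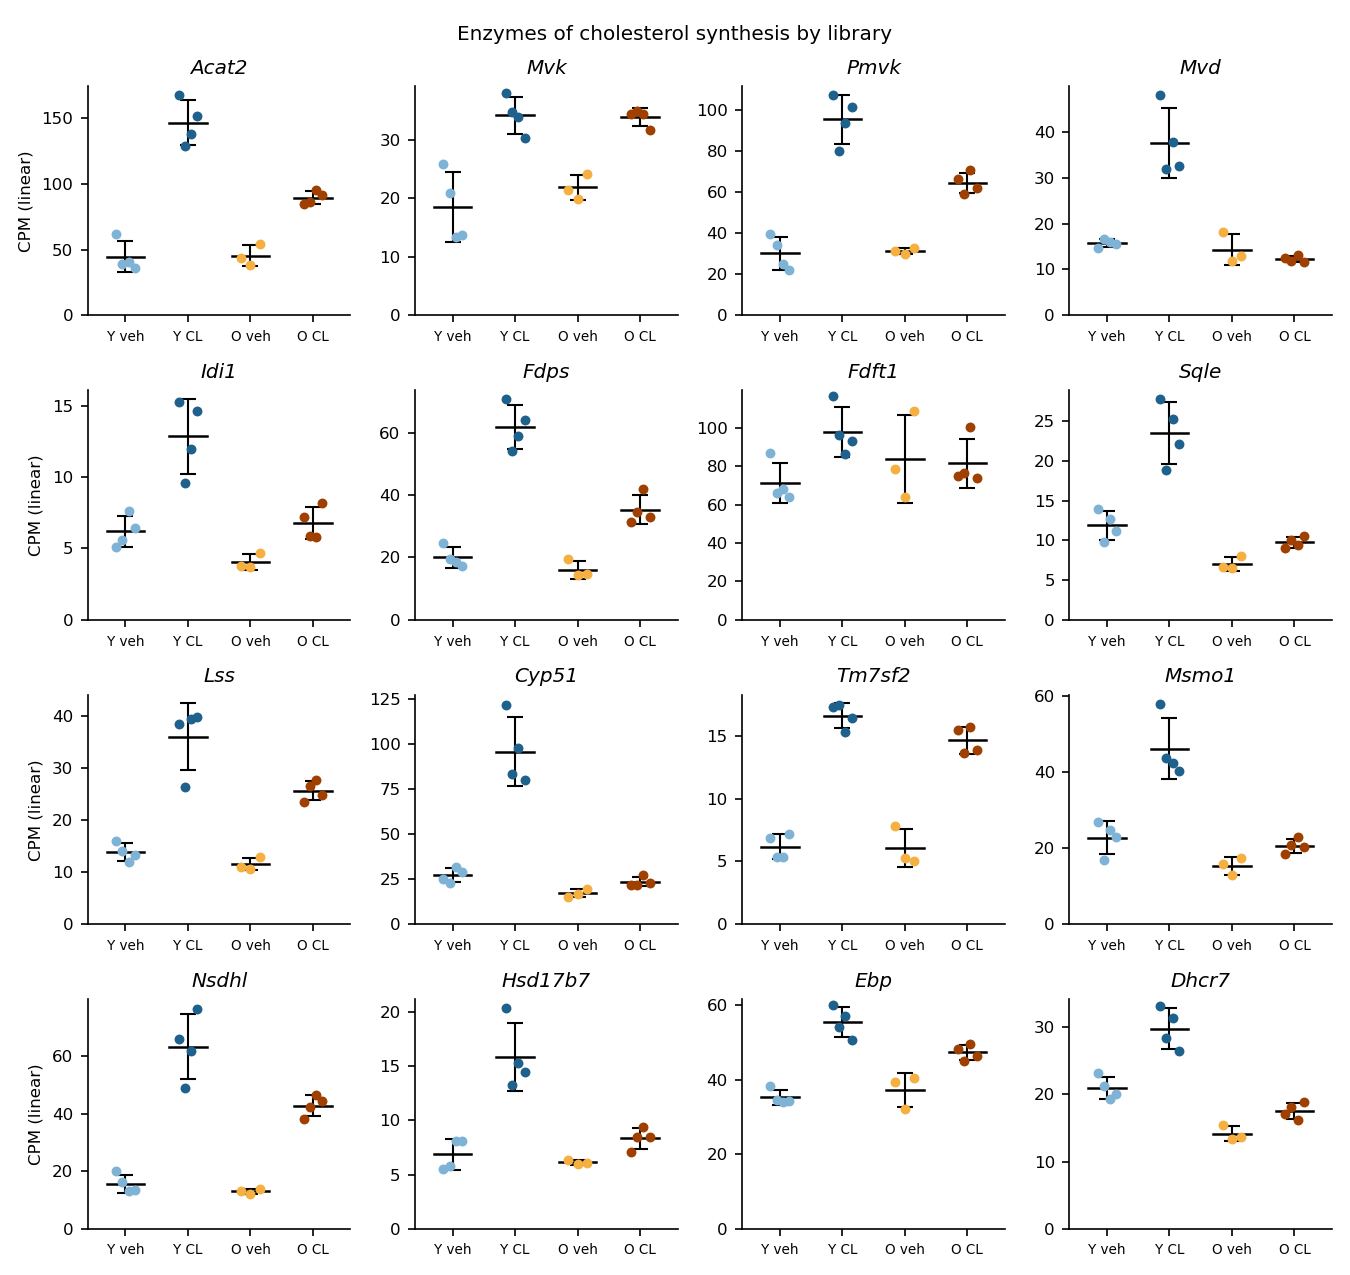
CPM (linear axis from 0) of the 16 enzymes with reads in each of the 15 libraries, by group (Y veh, Young_Ctrl; Y CL, Young_CL; O veh, Old_Ctrl; O CL, Old_CL; n = 4, 4, 3 and 4). Dots are libraries, the long bar is the mean and the whiskers are 1 SD; in 15 of the 16 panels the young CL dots lie above all young vehicle dots, and Mvd shows no rise in the aged CL group.

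Sterol sensing genes did not move as 1 block. Insig1, the sterol-responsive anchor of SCAP, stood at 94.7, 67.1, 50.9 and 41.4 CPM with vehicle and at 759.7, 445.4, 688 and 777 CPM with CL in young mice (edgeR log2 change 3.40, SE 0.26, adjusted p = 1.3e-07). It was 10.6-fold higher, and only 0.595% of the genes tested had as large a rise or a larger one. Insig2, its less sterol-responsive relative, rose by 0.44 (edgeR adjusted p = 0.0055). Srebf2 fell, from 117, 153, 141 and 138 CPM to 102, 98.3, 108 and 109 CPM (edgeR log2 change -0.40, SE 0.09, adjusted p = 0.0031), with no overlap between the groups. Thus the gene of the factor was lower in the libraries in which its known targets were higher. Scap had means of 68.1 ± 6.25 and 68.4 ± 5.74 CPM (SD, n = 4 each; log2 change 0.00, SE 0.09, edgeR adjusted p = 0.99).

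Genes of sterol transport and export moved little. Abca1, which loads cholesterol onto lipid-poor acceptors outside the cell, rose from 234, 259.9, 258 and 239.5 CPM to 347, 318, 373 and 364 CPM (edgeR log2 change 0.50, SE 0.11, adjusted p = 0.0016), with no overlap. Npc2, a soluble lysosomal cholesterol carrier, rose by 0.49 (edgeR adjusted p = 0.031) with overlapping groups, and lost its call without Young_Ctrl 2, 3 or 4 or Young_CL 1 or 2 (adjusted p = 0.0699 to 0.0868). Mylip, an LXR-driven ubiquitin ligase that sends lipoprotein receptors for breakdown, fell between means of 113 ± 8.21 and 87.1 ± 7.90 CPM (SD, n = 4 each; edgeR log2 change -0.38, adjusted p = 0.0029). The 5 others were not called: Abcg1 (-0.20), Stard4 (-0.11), Npc1 (-0.09), Soat1 (-0.50) and the LXRβ gene Nr1h2 (-0.25, edgeR adjusted p = 0.053). Nr1h2 was called lower without Young_Ctrl 3 or 4 or Young_CL 3 or 4 (adjusted p = 0.0232 to 0.0412).

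Cell markers that moved beside these genes in young mice are given here. The summed CPM of 12 adipocyte markers was 42574, 26271, 21412 and 18623 in Young_Ctrl 1 to 4 and 44795 to 51283 in Young_CL, with 7 of 12 markers higher and 0 lower. Young_Ctrl 1, highest for the adipocyte markers of its group, was also highest for the summed CPM of the enzymes (434, against 335 to 350.5 in the other three). All 10 T cell markers and all 9 tested B cell and lymph node markers were lower with CL, the B cell sum falling from a range of 1299 to 1799 CPM to one of 770.3 to 1103 CPM. The part of these shifts in the rise of the enzymes was not tested. Given a covariate for B cell and lymph node transcripts 16 members were called higher and 0 lower, 14 of the 16 enzymes among the former. Srebf2 (-0.18, edgeR adjusted p = 0.37) and Mylip (-0.30, adjusted p = 0.15) were then not called. In Young_CL 4, the library of its group with few muscle transcripts (55.3 CPM), the enzymes summed to 854 CPM, against 769 to 1006 CPM in the 3 muscle-rich libraries of that group and 335 to 434 CPM in Young_Ctrl. The part of muscle in the rise was not tested beyond the fits given here. Young_CL 4 also had the lowest macrophage sum of its group (1084 CPM, against 1912 to 2217 CPM). Its progenitor and stromal sum was lowest too (889 CPM, against 2284 to 2806 CPM). Leaving out all 5 libraries rich in muscle, so that it alone stood for young CL, 15 members were called higher and 0 lower.

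In aged mice the same comparison gave a smaller rise of the enzymes. At 12 months 14 of 16 enzymes rose with CL and 0 fell (median log2 change 0.55, against -0.01 over all genes tested). The count at an unadjusted p under 0.05 and by limma-voom was the same, DESeq2 gave 13 and 0, and upper-quartile scaling, under which the median of all genes was -0.15 in young and -0.09 in aged mice, gave 10 and 0 here and 16 and 0 in young mice. In this comparison 23.1% of all genes were called higher and 22.2% lower, and 27.9% and 25% had no overlap. Of the 28 members tested 17 rose and 3 fell, and 17 and 2 did not overlap. Upper-quartile scaling also split the calls over all genes into 2839 higher and 4491 lower in young mice, against 3323 and 3383 with TMM.

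Nsdhl again had the largest change of the enzymes, from 13.1, 12.3 and 13.8 CPM with vehicle to 38.2, 42.3, 46.6 and 44.4 CPM with CL (edgeR log2 change 1.72, SE 0.16, adjusted p = 5.2e-06). Tm7sf2 rose by 1.33, Fdps by 1.16, Lss by 1.15, Pmvk by 1.04 and Acat2 by 0.98, and their groups did not overlap. Idi1 (0.73) and Mvk (0.63) followed. Smaller rises were those of Sqle (0.46), Hsd17b7 (0.46), Cyp51 (0.45), Msmo1 (0.44), Ebp (0.35) and Dhcr7 (0.32). Each of these 6 lost its call in at least 1 fit without 1 of the aged libraries (edgeR adjusted p = 0.0557 to 0.181): Sqle without Old_Ctrl 1 or 3 or Old_CL 4, Hsd17b7 without any 1 of Old_Ctrl 1, 3 and 4 and Old_CL 2, 3 and 4, Cyp51 without Old_Ctrl 1 or 3 or Old_CL 3, Msmo1 without Old_Ctrl 1 or 3 or Old_CL 2, 3 or 4, Ebp without Old_Ctrl 3, and Dhcr7 without Old_Ctrl 3 or 4 or Old_CL 2 or 4. The whole count of members called higher was lowest, 10, when Old_Ctrl 3, rich in muscle, was left out. With the close libraries Old_CL 1, 2 and 4 summed into 1, 12 members and 10 of the 16 enzymes were called higher, and Sqle, Msmo1, Hsd17b7, Dhcr7 and Scap were not called (edgeR adjusted p = 0.0763 to 0.115).

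Mvd and Fdft1 did not pass. Mvd stood at 18.2, 11.9 and 12.9 CPM with vehicle and at 12.4, 11.8, 13.1 and 11.7 CPM with CL in aged mice (edgeR log2 change -0.19, SE 0.16, adjusted p = 0.33). The aged CL libraries lay inside or just below the vehicle range. Fdft1 had means of 83.7 ± 22.8 and 81.4 ± 12.6 CPM (SD, n = 3 and 4; log2 change -0.04, SE 0.17, edgeR adjusted p = 0.87).

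Insig1 rose in aged mice from 72.1, 47.4 and 74.2 CPM to 330.2, 313, 416 and 333 CPM (edgeR log2 change 2.44, SE 0.28, adjusted p = 2.1e-05), a 5.41-fold rise that 0.536% of the genes tested reached or passed. Insig2 rose between means of 48.6 ± 6.77 and 75.5 ± 5.97 CPM (SD, n = 3 and 4; log2 change 0.63, edgeR adjusted p = 7.9e-04). Scap rose by 0.29 (edgeR adjusted p = 0.018), a call lost without Old_Ctrl 1 or 3 (adjusted p = 0.0734 and 0.0511). Srebf2 fell from 104, 93.5 and 87.5 CPM to 70.5, 69.1, 58.5 and 66.9 CPM (edgeR log2 change -0.52, SE 0.10, adjusted p = 8.6e-04). As in young mice, Srebf2 was thus lower where the INSIG genes and most enzymes were higher.

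Abcg1, the exporter that hands cholesterol to lipoprotein particles, fell from 193, 133 and 201 CPM to 124, 132, 117 and 120.5 CPM (edgeR log2 change -0.51, SE 0.14, adjusted p = 0.0078). Soat1, which esterifies cholesterol for storage and is strong in macrophages, fell by 1.07 on the log2 scale (SE 0.27, edgeR adjusted p = 0.0048). Its vehicle libraries stood at 58.7, 26.1 and 68.2 CPM and its CL libraries at 21.5, 23.0, 28.6 and 23.1 CPM, so the groups overlapped through Old_Ctrl 3. The summed CPM of 12 macrophage markers was also lowest in Old_Ctrl 3, at 5230, 2628 and 4865 CPM in Old_Ctrl 1, 3 and 4. The highest library was Old_Ctrl 1 for these markers and Old_Ctrl 4 for Soat1. In Old_CL the macrophage sum was 1849 to 2766 CPM, with 9 of the 12 markers lower and 0 higher. The part of macrophages in the change of Soat1 and Abcg1 was not tested. Abca1 (0.28, edgeR adjusted p = 0.059), Mylip (-0.20), Npc2 (0.16), Nr1h2 (0.03), Npc1 (-0.03) and Stard4 (-0.11) did not pass, and Abca1 did without Old_CL 3 (adjusted p = 0.0155).

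Other markers moved in aged mice too. Adipocyte markers summed to 31659 to 46317 CPM in Old_Ctrl and to 62836 to 75252 CPM in Old_CL (8 of 12 higher, 0 lower), and the summed enzymes to 298 to 389 and 511 to 587 CPM. T cell markers were lower (10 of 10), as were 7 of 9 B cell and lymph node markers and 7 of 8 progenitor and stromal markers. Given a covariate for B cell and lymph node transcripts 9 members were called higher and 4 lower, and without the 5 muscle-rich libraries 9 and 3. With the B cell and lymph node covariate Mvk, Sqle, Cyp51, Msmo1, Hsd17b7, Ebp, Dhcr7 and Scap lost their call (edgeR adjusted p = 0.0887 to 0.384). The same members lost it without the muscle-rich libraries. Fdft1 was called lower with that covariate (-0.43, edgeR adjusted p = 0.040). The adipocyte share was not tested as a covariate.

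**Figure D2:**
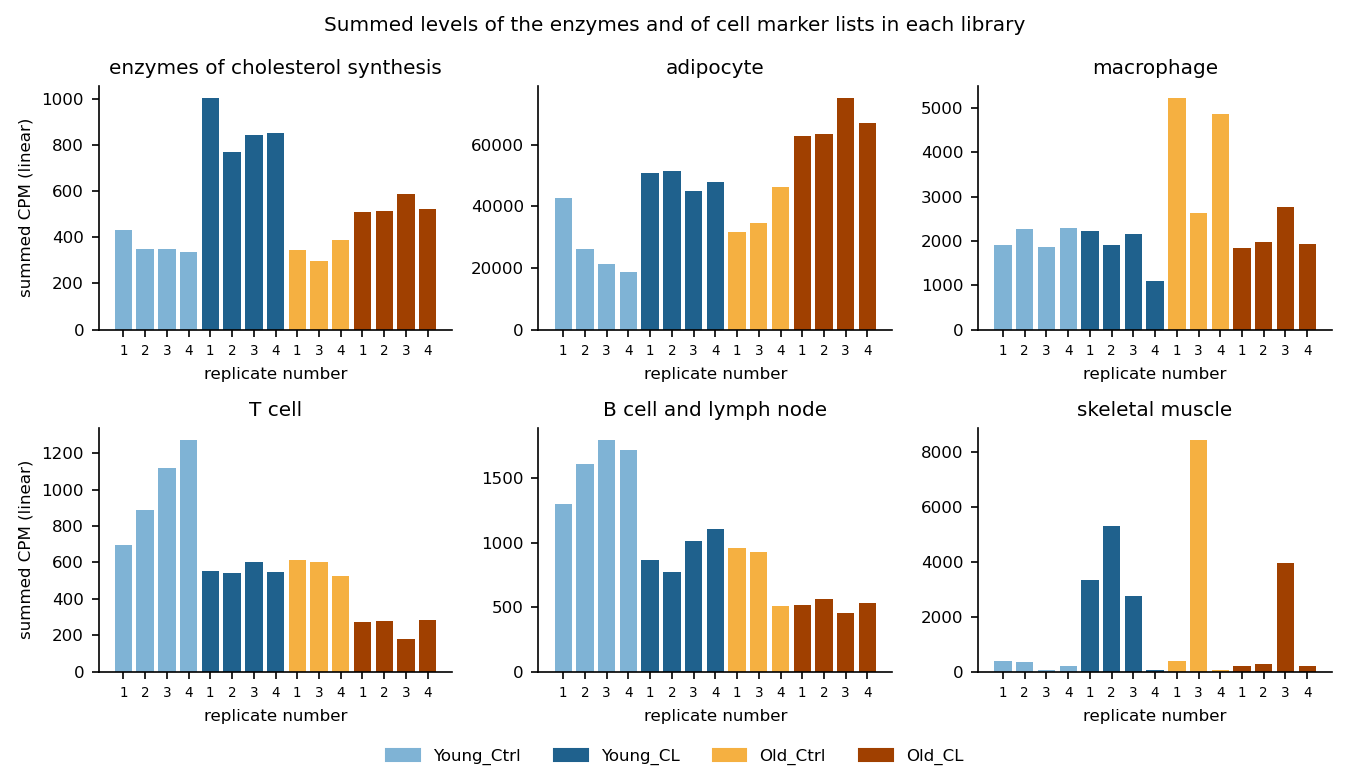
Summed CPM (linear axes from 0) of the 16 enzymes with reads and of 5 cell marker lists in each of the 15 libraries, 1 bar a library, coloured by group; a sum gives most weight to the genes with most reads. The enzyme sum is 769 to 1006 CPM in Young_CL and 511 to 587 CPM in Old_CL, and the muscle sum is high in 5 libraries.

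The CL responses at the 2 ages share no libraries and can be set side by side. Across the 28 tested members the log2 changes in young and aged mice had r = 0.885 (Spearman rho 0.841), a description across genes, which are not independent replicates, against r = 0.549 across all genes tested. The sign was the same in 25 of 28 members (89.3%, against 73.3% of all genes), 16 were called higher at both ages and 1, Srebf2, lower at both. In size, whatever its sign, the estimate was larger in young than in aged mice for 16 of 16 enzymes and 23 of 28 members, against 7440 of all 15288 genes.

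**Figure D3:**
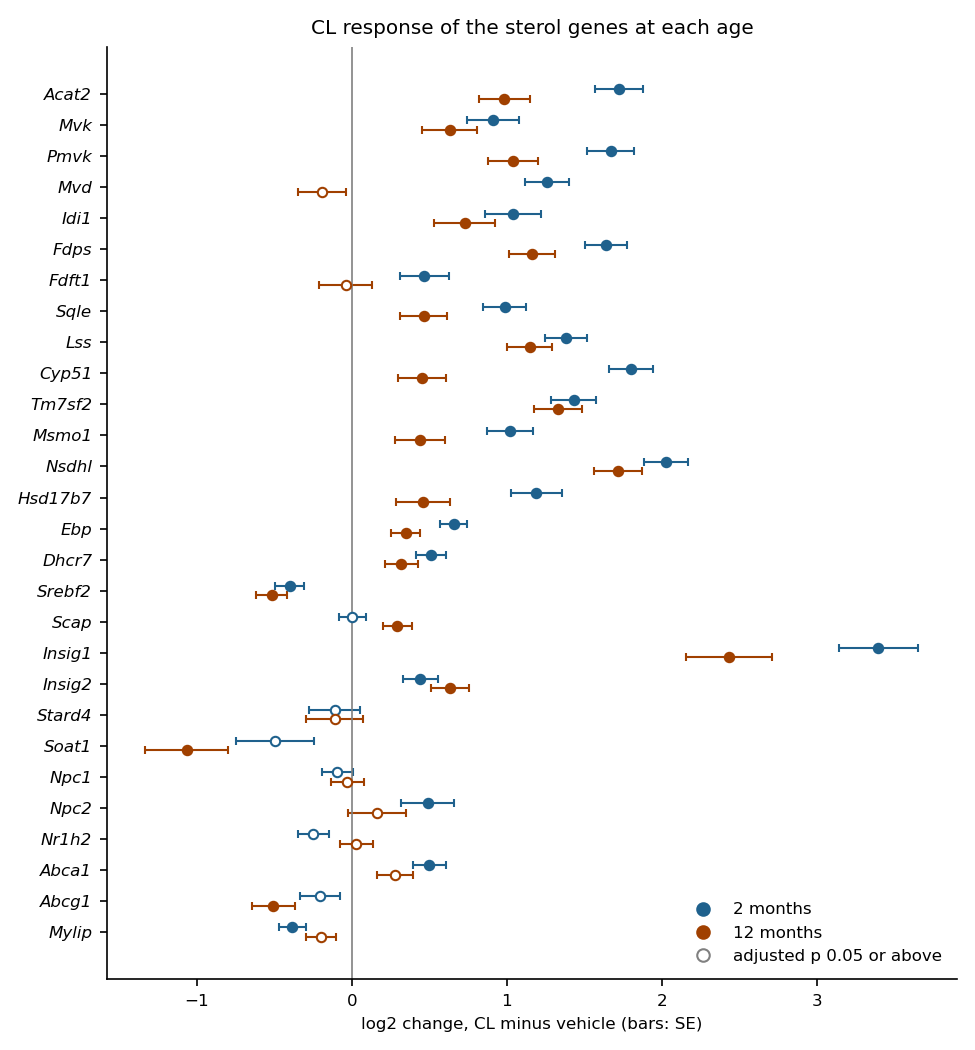
Log2 change (CL minus vehicle) of the 28 tested members in mice of 2 and 12 months, with bars of 1 SE; filled dots are called at an adjusted p under 0.05. All 16 enzymes, from Acat2 to Dhcr7, have the young dot to the right of the aged one, the aged dots of Mvd (-0.19) and Fdft1 (-0.04) lie left of 0, and Insig1 is farthest, at 3.40 and 2.44.

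The difference between these responses was tested as the age by CL interaction, aged minus young. It was called for 2 members, both lower, and for 0 higher. Over all genes 3.31% were called higher and 3.77% lower (506 and 577 genes), which fell to 75 and 64 genes with Old_CL 1, 2 and 4 summed, when the 2 members were still called. At an unadjusted p under 0.05 the members counted 1 higher and 11 lower, limma-voom called 0 and 3, and DESeq2 0 and 5. Mvd differed by -1.45 (SE 0.21, edgeR adjusted p = 0.0021), from a log2 change of 1.26 in young to -0.19 in aged mice. Cyp51 differed by -1.35 (SE 0.21, edgeR adjusted p = 0.0031), from 1.80 to 0.45. Both were called under every alternative run.

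All 16 enzyme estimates of the interaction were below 0 (median -0.49, against -0.02 over all genes), but 14 did not pass. Acat2 (-0.74, edgeR adjusted p = 0.055), Hsd17b7 (-0.73, adjusted p = 0.074), Pmvk (-0.63, adjusted p = 0.0896) and Insig1 (-0.96, SE 0.35, adjusted p = 0.098) came nearest. Acat2, Pmvk and Insig1 passed without Young_Ctrl 1 (edgeR adjusted p = 0.0038, 0.0180 and 0.0215), and Acat2 also without Old_Ctrl 3 (adjusted p = 0.0321), as did Soat1 (adjusted p = 0.0451). Tm7sf2 (-0.10), Dhcr7 (-0.20) and Lss (-0.23) had the smallest differences of the enzymes. Nsdhl, first in both ages, differed by -0.31 (SE 0.21, edgeR adjusted p = 0.35).

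Aged against young mice under vehicle asks what age alone goes with. No enzyme was called higher, 5 of 16 were lower, and the median log2 difference was -0.22, against 0.03 over all genes. At an unadjusted p under 0.05 the counts were 0 and 6, and limma-voom and DESeq2 called 0 and 5. Over all genes 15.1% were called higher and 12.2% lower, and 14% and 13.1% had no overlap. The 28 members counted 3 higher and 7 lower, with 2 and 7 not overlapping. Under this comparison, 0 of 16 is below the share of all genes called higher, and 5 of 16 above the share called lower.

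The 5 enzymes were Sqle (-0.74), Cyp51 (-0.66), Idi1 (-0.62), Msmo1 (-0.58) and Dhcr7 (-0.57). Sqle, which puts the oxygen on squalene, stood at 13.9, 9.80, 12.6 and 11.1 CPM in young and at 6.63, 6.49 and 8.03 CPM in aged vehicle libraries (SE 0.16, edgeR adjusted p = 0.0040). Cyp51 stood at 15.1, 16.8 and 19.5 CPM in the aged libraries, below all 4 young ones (SE 0.16, edgeR adjusted p = 0.0074). Idi1 lost its call without Young_Ctrl 3 or 4 or any Old_Ctrl library (edgeR adjusted p = 0.0517 to 0.115), and Msmo1 without Young_Ctrl 3 or Old_Ctrl 3 (adjusted p = 0.0556 and 0.0835). Fdps (-0.33) was called lower only without Old_Ctrl 1 (adjusted p = 0.0446), and Mvk (0.27) higher only without Young_Ctrl 1 (adjusted p = 0.0246). The others, Acat2 to Ebp, ran from -0.25 to 0.24 and were not called.

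Outside the enzymes, Srebf2 was lower with age, at 95.03 ± 8.36 against 138 ± 14.8 CPM (SD, n = 3 and 4; log2 difference -0.54, SE 0.10, edgeR adjusted p = 0.0025). Stard4, an SREBP-2 target that carries cholesterol between membranes, stood at 7.50, 10.1, 12.6 and 11.3 CPM in young and at 6.63, 5.52 and 4.67 CPM in aged vehicle libraries (edgeR log2 difference -0.93, SE 0.18, adjusted p = 0.0030), with no overlap. On the export side the direction was the other one. Abcg1 stood at 87.3, 98.5, 97.8 and 127 CPM in young and at 193, 133 and 201 CPM in aged libraries (edgeR log2 difference 0.77, SE 0.14, adjusted p = 0.0018). Abca1 was higher by 0.38 (edgeR adjusted p = 0.023) and Npc2 by 0.59 (adjusted p = 0.029). Abca1 lost its call without Young_Ctrl 4 or Old_Ctrl 1 or 4 (edgeR adjusted p = 0.0546 to 0.106), and Npc2 without Young_Ctrl 2, 3 or 4 or Old_Ctrl 1 or 4 (adjusted p = 0.0638 to 0.165).

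Soat1 (0.51), Npc1 (0.29), Mylip (-0.25), Insig2 (0.26), Nr1h2 (0.13), Scap (0.08) and Insig1 (0.03) did not pass under vehicle. Without Old_Ctrl 3, Soat1 (0.84, edgeR adjusted p = 0.0081) and Npc1 (0.39, adjusted p = 0.0256) did, Mylip passed without Young_Ctrl 1 or 2 or Old_Ctrl 3 (adjusted p = 0.0445 to 0.0487), and Insig2 without Young_Ctrl 1 (adjusted p = 0.0332). Macrophage markers were higher in the aged vehicle libraries (9 of 12, 0 lower, sums of 2628 to 5230 against 1852 to 2298 CPM), and B cell and lymph node markers lower (8 of 9, sums of 506 to 959 against 1299 to 1799 CPM). The part of either in the differences above was not tested. Given a covariate for B cell and lymph node transcripts, 0 members were called in either direction under vehicle, in a fit that called 18 genes higher and 7 lower in all. With it the differences of Srebf2 (-0.22), Stard4 (-0.32) and Idi1 (-0.52) were smaller in size. Those of Sqle (-0.95), Cyp51 (-0.91), Msmo1 (-0.97) and Dhcr7 (-0.60) were larger.

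**Figure D4:**
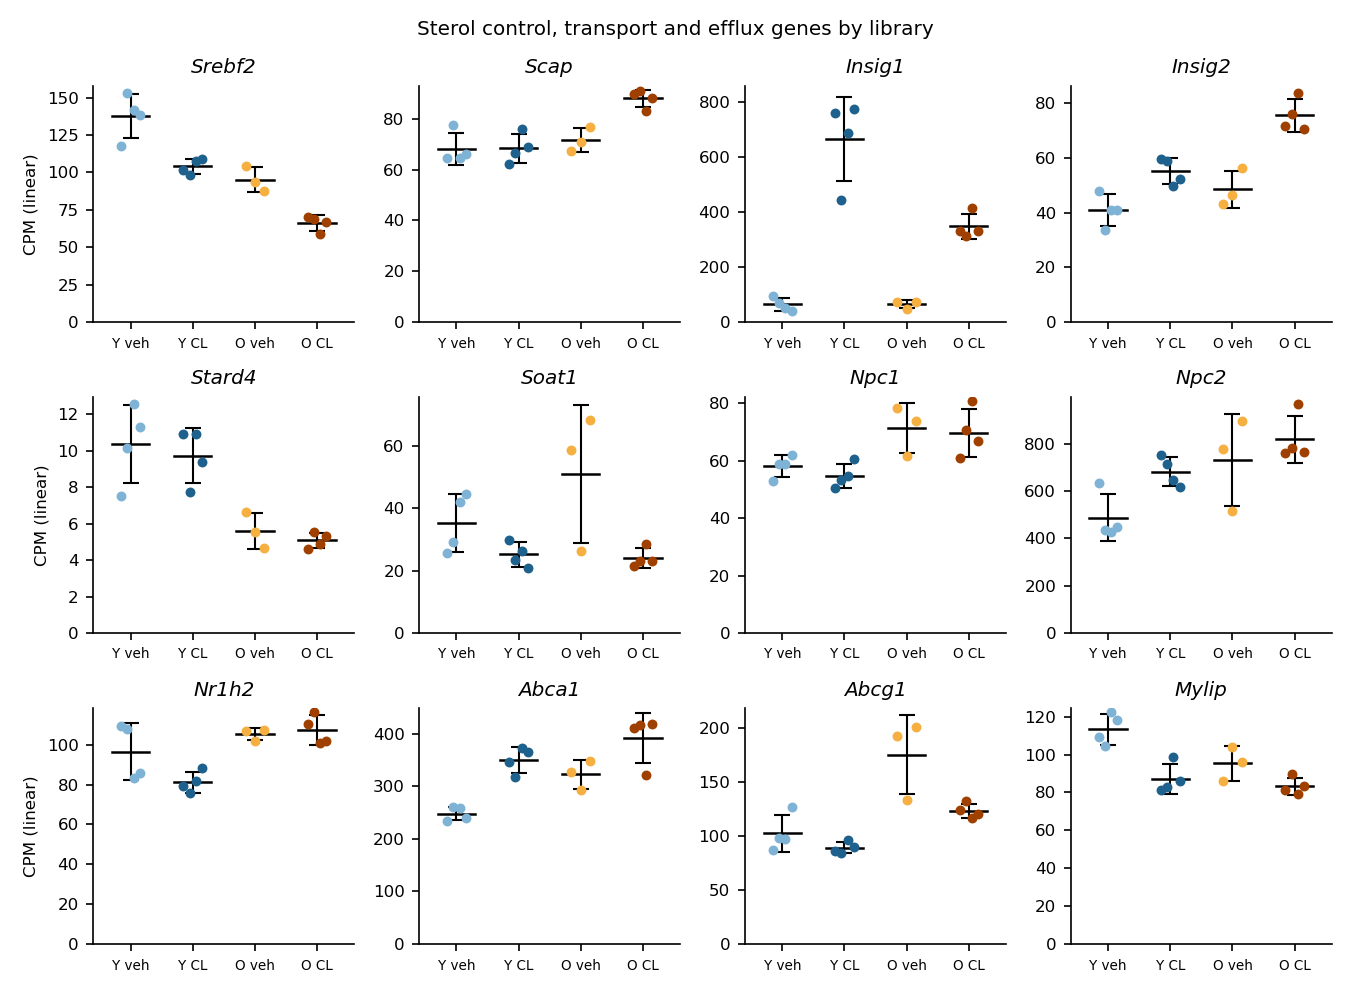
CPM (linear axis from 0) of the 12 members of sterol sensing, transport and export in each of the 15 libraries, grouped and marked as in the plot of the enzymes (dots, libraries; long bar, mean; whiskers, 1 SD). Srebf2 steps down with CL and with age, Insig1 is high only in the CL groups, Stard4 is lower at 12 months in both treatments, and Soat1 spreads widely in aged vehicle libraries.

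Aged against young mice under CL shows where the treated pads differed. Here 13 of 16 enzymes were lower in aged mice and 0 higher, with a median log2 difference of -0.74 against -0.01 over all genes. The same counts came at an unadjusted p under 0.05, with limma-voom and with DESeq2, and 12 of the 13 had no overlap. Over all genes 20.5% were called higher and 19.4% lower, and 23.5% and 21.4% had no overlap. Among the 28 members 5 were higher and 16 lower, and 6 and 15 did not overlap. The cell markers differed here too: T cell markers were lower in the aged CL group (10 of 10, sums of 176.7 to 281.1 against 538.9 to 600.8 CPM), as were 8 of 9 B cell and lymph node markers (455.3 to 559.5 against 770.3 to 1103 CPM) and 3 of 8 progenitor and stromal markers, while 6 of 12 adipocyte markers and 3 of 12 macrophage markers were higher and 0 lower. The part of these lists in the differences was not tested beyond the covariate for B cell and lymph node transcripts. With it 11 members were called lower and 0 higher. Idi1, Lss, Nsdhl, Hsd17b7, Srebf2 and Stard4 lost their call as lower (edgeR adjusted p = 0.0526 to 0.234), and Fdft1 gained one (-0.89, adjusted p = 0.0045). This comparison shares its aged CL and young CL libraries with those above, so it is no separate evidence of the smaller response.

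Cyp51 was lowest, at 22.0, 22.0, 27.4 and 23.0 CPM in Old_CL against 79.7 to 121.6 CPM in Young_CL (edgeR log2 difference -2.01, SE 0.14, adjusted p = 2.1e-07). That is 4.04-fold lower, beyond any spread within the groups. Mvd followed at -1.62 (SE 0.14, edgeR adjusted p = 1.5e-06), then Sqle at -1.26, Msmo1 at -1.16, Idi1 at -0.93 and Hsd17b7 at -0.92. Fdps (-0.81), Dhcr7 (-0.76), Acat2 (-0.71), Pmvk (-0.57), Nsdhl (-0.56), Lss (-0.48) and Ebp (-0.23) were lower too. Ebp lost its call without any 1 of Young_CL 1, 2 and 3 and Old_CL 1, 2, 3 and 4 (edgeR adjusted p = 0.0518 to 0.137). Fdft1 (-0.27), Tm7sf2 (-0.18) and Mvk (-0.02) were not called.

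Insig1 was lower in the aged CL group, at 348 ± 46.4 against 668 ± 153 CPM (SD, n = 4 each; log2 difference -0.94, SE 0.24, edgeR adjusted p = 0.0055), and so were Srebf2 (-0.65) and Stard4 (-0.93). Under vehicle Srebf2 stood at -0.54 and Stard4 at -0.93, and neither interaction passed (edgeR adjusted p = 0.62 for Srebf2 and higher for Stard4). Higher in the aged CL group were Abcg1 (0.47), Insig2 (0.45), Nr1h2 (0.40), Scap (0.37) and Npc1 (0.35), the transmembrane partner of Npc2 in lysosomal export. Scap stood at 89.9, 91.0, 83.3 and 88.2 CPM in Old_CL and at 62.1, 66.6, 75.9 and 68.9 CPM in Young_CL, with no overlap. Npc2 (0.26), Abca1 (0.16), Mylip (-0.06) and Soat1 (-0.06) were not called. With Old_CL 1, 2 and 4 summed, 4 members were higher and 12 lower, and Insig1 (adjusted p = 0.0673), Abcg1 (0.0693), Pmvk (0.0651), Lss (0.0713) and Ebp (0.189) were not called by edgeR. None of the 5 higher members was called when all 5 libraries rich in muscle were left out, which keeps 1 young CL library, or with a covariate for B cell and lymph node transcripts.

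**Figure D5:**
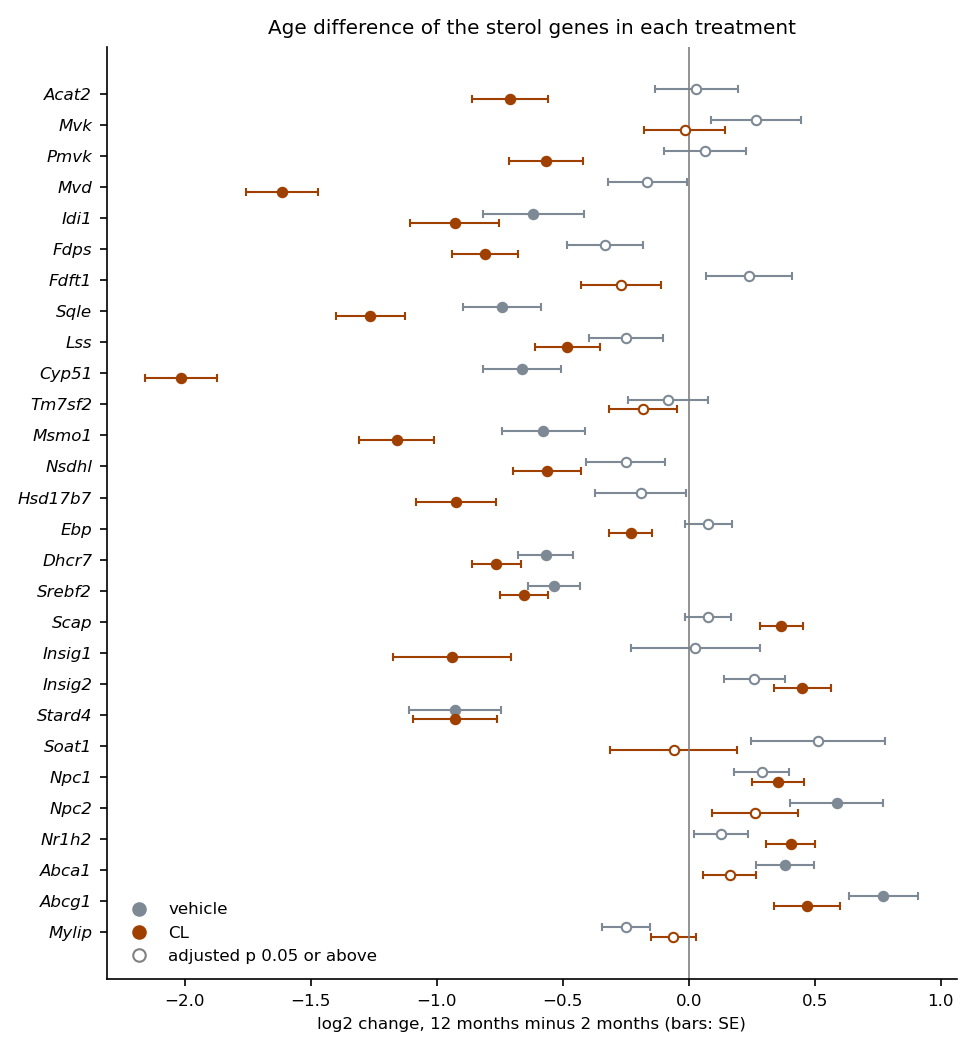
Log2 difference (12 minus 2 months) of the 28 tested members under vehicle and under CL, with bars of 1 SE; filled dots are called at an adjusted p under 0.05. Under CL 13 enzymes are called lower, with Cyp51 at -2.01 and Mvd at -1.62, while Abcg1 lies to the right of 0 in both treatments.

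Sterol genes outside the 29 were taken from 6 further lists of 71 genes, of which 70 were tested. With CL 31 were higher and 8 lower in young mice (median log2 change 0.23) and 35 and 9 in aged mice (0.26), against 21.7% higher and 22.1% lower, and 23.1% and 22.2%, of all genes. Among 10 other synthesis genes 6 rose and 1 fell in young and 6 rose and 2 fell in aged mice. Aacs, which turns acetoacetate into acetoacetyl-CoA for lipid synthesis, rose from 238 to 669 CPM in young (edgeR log2 change 1.49, adjusted p = 6.6e-05) and from 153 to 379.5 CPM in aged mice (1.31, adjusted p = 5.1e-04). Of 13 genes of the isoprenoid branch, which uses farnesyl diphosphate for protein prenylation, dolichol and ubiquinone, 8 rose in young and 7 in aged mice. Examples are Rce1, a protease of prenylated proteins (0.62 and 0.75), and Pdss2, of ubiquinone side-chain synthesis (0.93 and 0.92).

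The list of SREBP processing and sterol-regulated breakdown counted 5 of 15 higher and 1 lower in young mice and 7 higher in aged mice, with Ufd1l and Vcp, which extract proteins from the endoplasmic reticulum for breakdown, at 0.61 and 0.61 in young and 0.53 and 0.36 in aged mice. Of 16 uptake and handling genes 7 rose and 3 fell in young mice, and 8 and 2 in aged mice. Of 8 LXR partners and targets 3 rose and 1 fell, then 4 and 1: Lpcat3, which remodels membrane phospholipids, rose by 1.38 and 0.99, and Arl4c, a small GTPase, fell by 0.80 and 1.22 on the log2 scale. The 8 oxysterol enzymes counted 2 and 2, then 3 and 4, with Cyp27a1, the sterol 27-hydroxylase, at -0.39 and -0.48. With age these 70 genes counted 15 higher and 12 lower under vehicle and 21 and 12 under CL, against 15.1% and 12.2%, and 20.5% and 19.4%, of all genes. The synthesis genes among them counted 2 higher and 4 lower under vehicle and 2 and 7 of 10 under CL. Pltp, an LXR target that transfers phospholipid between lipoproteins, was higher by 1.78 under vehicle and 1.46 under CL (edgeR adjusted p = 0.0015 and 0.0011). In the interaction 3 of the 70 were called higher and 1 lower, among them Paqr3 (1.18, edgeR adjusted p = 0.028), which tethers SCAP at the Golgi.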

How the data were processed

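PolyA RNA of inguinal fat was sequenced in 15 libraries. The values used are raw gene counts as deposited by the authors, 1 whole-number table of 24015 genes; per the submitters' processing notes STAR, featureCounts of Subread and the build mm9 were used, with versions not given in the sources used here. No reads were realigned.

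After filterByExpr by group (15288 genes left) and TMM scaling, edgeR (version 4.0.16, R version 4.3.3) fitted a robust quasi-likelihood model to all 15 libraries with a mean for each group; p-values were adjusted by Benjamini-Hochberg and called under 0.05. An SE was obtained by dividing the size of the log2 change by the root of its F statistic. CPM uses TMM library sizes; means have SD. Groups come from the sample titles. Promoter windows and start sites were read from RefSeq tables (GRCm38.p6).

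All 29 members could be named; of each wider list the 4 with the smallest p could be. The members and lists were chosen with earlier results of these data known. Some genes of the wider lists are not reported here. A floor of 3 counts stands for a count of 0. Library totals of 6115542 to 51577001 counts set the precision of low genes.

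Alternatives were RLE and upper-quartile factors, no filter, a stricter one (a mean of 10 counts, and 1 CPM or more in 3 libraries), the replicate number as a block, the B cell and lymph node or the muscle score (mean log2 CPM with a prior count of 2) as a covariate, 5 muscle-rich libraries removed, Old_CL 1, 2 and 4 summed, only the 2 groups compared, limma-voom (3.58.1), DESeq2 1.42.0, and each library left out.

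The procedure was tested on simulated data with 15288 genes: for young CL, aged CL, age under vehicle, age under CL and the interaction it recovered 74%, 67%, 68%, 75% and 51% of genes changed 2-fold and 90%, 93%, 88%, 94% and 86% of those changed 4-fold.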

Additional observations from a re-analysis of the deposited data

Results flagged for a closer look

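Of 84 groups of 4 libraries checked, 3 for each tested member, 9 had 1 library set apart from the other three by more than Dixon's 95% limit, where chance gives about 1 in 20. In Young_Ctrl 1, Acat2 (61.82 CPM, next 40.6), Ebp (38.41, next 34.47) and Npc2 (633.9, next 447.0) were the highest of their group; this library also had the highest adipocyte sum of Young_Ctrl, 42574 CPM. In Young_Ctrl 2, Scap was highest (77.45 CPM, next 66.11). In Young_CL 2, which held 5294 CPM of muscle markers, Lss was lowest (26.48 CPM, next 38.56). In Old_CL 3, with 3952 CPM of muscle markers, Fdft1 (100.3 CPM, next 76.28) and Npc2 (967.8, next 780.7) were highest and Abca1 lowest (321.7, next 410.8). In Old_CL 4, Mvk was lowest (31.58 CPM, next 34.38).

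The response to CL differed between the ages for 2 members. Mvd differed by -1.45 on the log2 scale (aged minus young, SE 0.21, edgeR adjusted p = 0.0021), with 4 of 4 young CL libraries above all young vehicle libraries and 0 of 4 aged CL libraries above the aged vehicle range. Cyp51 differed by -1.352 (SE 0.21, edgeR adjusted p = 0.0031), with 4 of 4 CL libraries above the vehicle range at each age.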

How the results depend on the processing

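Over 19 to 26 alternatives for each member and comparison, 2645 of the values recomputed kept their direction and side of the threshold, 143 lost their call, 44 gained one, 78 moved and 2 reversed. Called in every alternative were 15 of 22 members in young CL, 12 of 20 in aged CL, 0 of 10 in age under vehicle, 7 of 21 in age under CL and 2 of 2 in the interaction. Given a covariate for B cell and lymph node transcripts, Fdft1 in young CL turned to -0.041 (edgeR adjusted p = 0.91, against 0.0084 to 0.91 over its alternatives) and Npc2 under vehicle to -0.080 (adjusted p = 0.95, against 0.0035 to 0.95), and members called higher and lower were 16 and 0 in young CL, 9 and 4 in aged CL, 0 and 0 in age under vehicle and 0 and 11 in age under CL; the cause was not tested. Without the 5 muscle-rich libraries, which leaves 1 young CL library assumed to vary like the others, the counts were 15 and 0, 9 and 3, 5 and 6, and 0 and 13 in that order, with fewer samples. With only the 2 groups fitted, 1 member was higher under vehicle. DESeq2 called 5 interactions lower. With Old_CL 1, 2 and 4 summed, members called higher and lower were 20 and 2, 12 and 3, 3 and 7, 4 and 12, and 0 and 2. Counts over all genes moved most for the interaction: against 506 higher and 577 lower they were 75 and 64 with those libraries summed, 120 and 83 without the muscle-rich libraries, 295 and 346 with the replicate block, 841 and 1030 by DESeq2, and 221 to 908 and 210 to 1162 with 1 library left out. For young CL (3323 and 3383) they were 1244 and 447 with the lymph node covariate and 1859 and 1115 without muscle-rich libraries; for aged CL (3525 and 3391), 2119 and 2181 with that covariate; under CL (3136 and 2972), 1006 and 1045, 1149 and 720, and 2032 and 1786 with Old_CL 1, 2 and 4 summed; under vehicle (2302 and 1860), 18 and 7 with the covariate, 1183 and 694 with only the 2 groups fitted and 1085 and 654 without Old_Ctrl 4.

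Leaving out 1 library gave 18 to 20 members higher and 2 to 3 lower in young CL, 10 to 17 and 3 in aged CL, 1 to 5 and 5 to 8 in age under vehicle, 5 and 15 to 16 in age under CL, and 0 and 2 to 5 for the interaction. Whether the replicate number pairs the samples is not known. Correlations of same-numbered deviations ran from -0.347 to 0.343, and with 3 or 4 libraries a group they cannot decide it. Between Old_Ctrl and Old_CL they were 0.0432, 0.332 and 0.204, and between Young_Ctrl and Young_CL 0.0454, 0.105, -0.0416 and -0.134. With the replicate number as a block the members called were 20 and 2, 17 and 3, 2 and 7, 5 and 15, and 0 and 2. Npc2 under vehicle (edgeR adjusted p = 0.0537) and Ebp under CL (adjusted p = 0.0601) then lost their call. Depth limits low counts most in Young_CL 3 and Old_Ctrl 1, and with 3 or 4 libraries a group the simulation recovered 51% of 2-fold interactions, so the uncalled ones are not shown to be absent.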
